A study of Solea senegalensis with 8 samples.

Results

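The step between the 75Ep and 20S stages of Senegalese sole (Solea senegalensis) was taken from the deposited miRNA table by its columns. These were the 2 libraries of embryos with 20 somites (20S) and the 2 libraries of embryos at 75% epiboly (75Ep), 4 of the 8 libraries of the series, with all 320 miRNAs listed. The other libraries came from hatching and from metamorphosis (Met), each with 1 library from incubation at 15°C and 1 from incubation at 21°C. In the paper the 2 temperatures applied to the embryos only, and every larva was kept near 21°C once hatched. At Met the temperature of a library is therefore that of its past incubation. Small RNA of whole embryos was read on the SOLiD platform. The 20S group held 1 library of embryos incubated at 15°C and 1 of embryos incubated at 21°C, and the 75Ep group likewise. Eggs came from natural spawning of captive broodstock, and each library was a pool of triplicate samples, so the 2 libraries of a stage are its 2 temperatures and not replicates of one condition. Wherever 2 values are given for a stage, the first is the library at 15°C and the second the library at 21°C.

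During epiboly the cells of a fish embryo spread over the yolk while the germ layers form, and by the somite stages the body axis carries segmented muscle blocks, a neural tube, eye and ear rudiments and a skin. MicroRNAs are short RNAs that pair with target transcripts and lower their stability or translation. Members of a family share the seed, the bases near the 5′ end that choose the targets. In zebrafish, miR-430 is the dominant family of the early embryo and clears maternal transcripts, and tissue miRNAs such as those of muscle and neurons appear as their tissues differentiate.

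The trimmed reads numbered 3320266 and 2564327 at 20S, and 2802986 and 2169069 at 75Ep. Reads of listed miRNAs came to 767509 and 572202 at 20S, and to 191673 and 142964 at 75Ep. The study's own counts of reads annotated to miRBase are larger in each of these libraries, by unequal parts, so shares and totals here refer to the listed miRNAs only. They made up 23.1% and 22.3% of the trimmed reads at 20S, against 6.84% and 6.59% at 75Ep. The share at 20S was 3.38 times that at 75Ep at 15°C and 3.39 times at 21°C. The deposited values are percents of the trimmed reads, so this gap enters every comparison made on them. Each result is therefore also given on values rescaled to the percent of the miRNA reads of the library. In whole embryos, a miRNA present in fewer cells and a miRNA present at a lower level per cell cannot be told apart.

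The miR-430 family took 24.5% and 25.6% of the miRNA reads at 20S, against 85.3% and 48.6% at 75Ep. As a percent of trimmed reads the same family was at 5.66% and 5.72% at 20S, and at 5.83% and 3.21% at 75Ep. On this scale the 20S libraries lay within the range of the 75Ep libraries. All other miRNAs together made up 17.5% and 16.6% of the trimmed reads at 20S, against 1.01% and 3.39% at 75Ep, which is 17.3-fold and 4.9-fold more. The 75Ep libraries thus differed widely in these miRNAs, and the 20S libraries were close to each other. The 5 most abundant miRNAs took 52.2% and 52.9% of the miRNA reads at 20S, against 88.5% and 69.2% at 75Ep. It took 33 and 34 miRNAs to make up 90% of the miRNA reads at 20S, against 7 and 23 at 75Ep. With miR-430 left out, these numbers were 37 and 37 at 20S, against 51 and 36 at 75Ep.

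**Figure D1:**
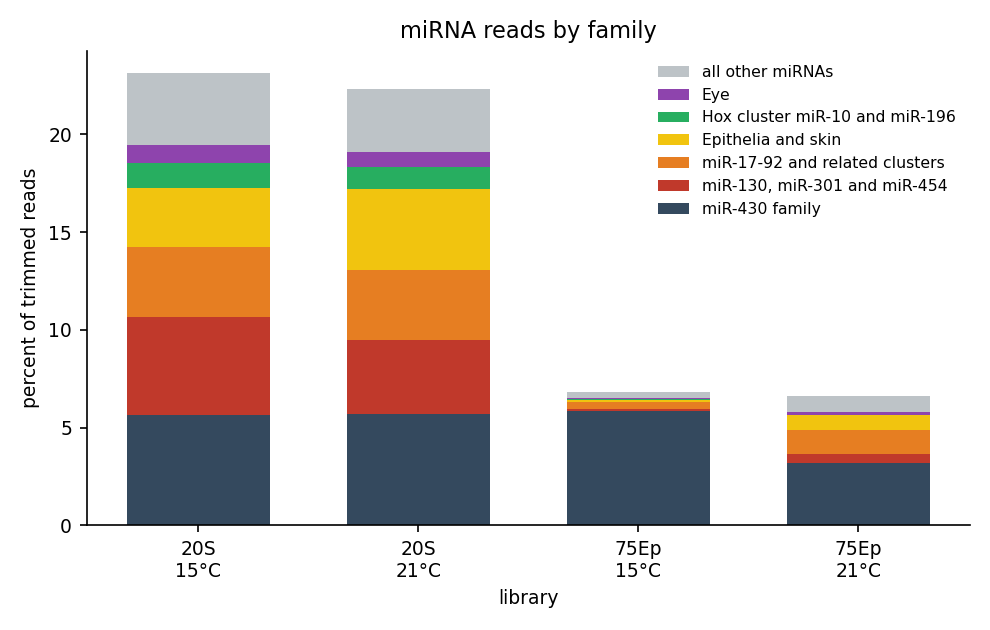
Stacked bars give the percent of trimmed reads (y axis) taken by each family or tissue list in the 4 libraries (x axis). The miR-430 segment is 5.66% and 5.72% high at 20S and 5.83% and 3.21% high at 75Ep, while the rest of the bar is 17.5% and 16.6% high at 20S and 1.01% and 3.39% high at 75Ep.

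Of the 320 miRNAs listed, 254 and 254 had at least 1 read at 20S, against 218 and 220 at 75Ep. With at least 10 reads, the numbers were 181 and 173 at 20S, against 126 and 140 at 75Ep. The 20S libraries held more miRNA reads, and at an equal number of 142964 miRNA reads the expected numbers were 212.2 and 217.5 at 20S, against 211.1 and 220 at 75Ep. The groups overlapped at this depth. At 28223 reads of miRNAs other than miR-430, the expected numbers were 175.5 and 177.8 at 20S, against 214 and 187.9 at 75Ep, and both 75Ep libraries were then above both 20S libraries. An exact test of 2 libraries against 2 cannot go below p = 0.333, so no test of these numbers was made. Altogether 186 miRNAs were read in all 4 libraries and 32 in none. Another 24 had reads in both 20S libraries and none at 75Ep, and 3 had reads in both 75Ep libraries and none at 20S.

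**Figure D2:**
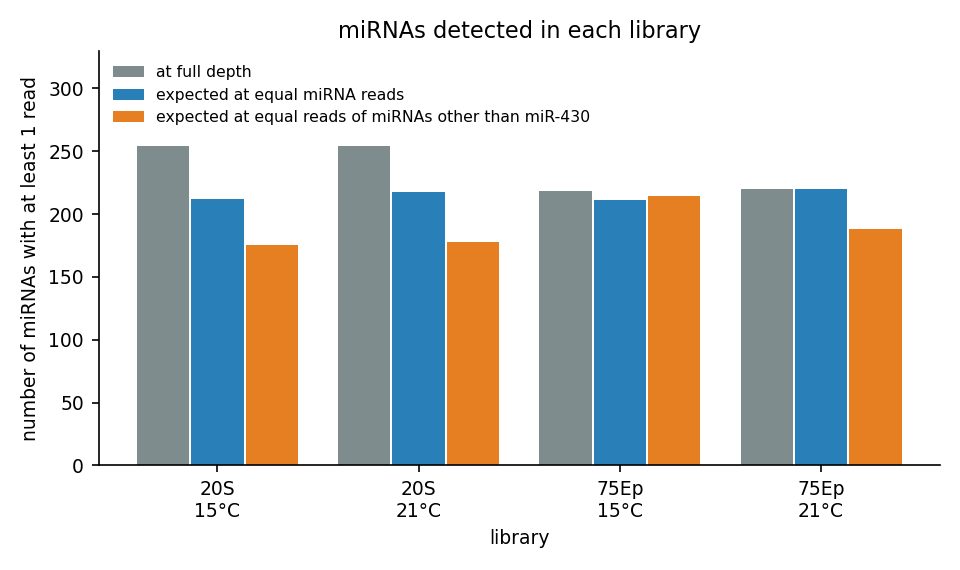
Bars count the miRNAs that had a read (y axis) in each of the 4 libraries (x axis), at full depth, at 142964 miRNA reads and at 28223 reads of miRNAs other than miR-430. The 20S bars are higher at full depth (254 and 254, against 218 and 220) and lower at equal reads of the miRNAs other than miR-430 (175.5 and 177.8, against 214 and 187.9).

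The stages were compared with limma over the 295 miRNAs read in at least 2 of the 8 libraries, with temperature as a term (two-sided, Benjamini-Hochberg adjusted p under 0.05). All 8 libraries entered the fit, so the spread came from all stages. A change is the difference 20S minus 75Ep on the log2 scale after 0.5 reads of the shallowest library were added. This draws the change of miRNAs with few reads toward 0. For miRNAs unread at a stage the size of the change rests on the reads added, and can exceed what the reads show. On the deposited scale 112 miRNAs rose at 20S, 38.0% of those tested, and 3 fell, 1.02%, with a median change of 1.87 over all 295. On the rescaled values 31 rose, 10.5%, and 9 fell, 3.05%, with a median change of 0.50. With miRNAs unread at a stage placed at the bound that 3 reads per library allow, these medians were 1.57 and 0. All 31 rescaled rises and 3 of the rescaled falls were also called as deposited. With 0.5 reads added, each of the 112 and each of the 31 was at least 2-fold higher at 20S at both temperatures. Of these, 13 and 3 had no read at 75Ep. With every 75Ep library taken at no fewer than 3 reads, the fold was at least 2 at both temperatures for 102 of the 112 and 27 of the 31. Among those without a read at 75Ep, 4 of the 13 and 0 of the 3 reached this.

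On 2 further scalings the median changes were 0.09 and -0.03. After centring every library on its median over the miRNAs read in all 8 libraries, 29 rose, 9.83%, and 22 fell, 7.46%. With miR-430 left out of the miRNA total 10 rose, 3.39%, and 19 fell, 6.44%. On all 4 scalings 9 miRNAs rose (miR-10c, miR-10d, miR-107-5p, miR-1788-3p, miR-196a, miR-221-3p, miR-301c, miR-375 and miR-725) and 2 fell (miR-202-5p and miR-1973). Of these, miR-725 had no read at 75Ep, and against 3 reads there its fold in percent of miRNA reads was 0.999 at 15°C and 1.25 at 21°C. miR-1973 rested on 2 and 5 reads at 75Ep and none at 20S. The number of calls varied with the libraries kept. With limma on the deposited scale, 1 miRNA rose without the 20S library at 15°C and 0 without the one at 21°C, where 87 and 81 rose at an unadjusted p under 0.05. It was 44 without the 75Ep library at 15°C, 47 without that of hatching at 15°C and 44 without that of hatching at 21°C. On the rescaled values, leaving out any single library other than those of 75Ep left 0 calls, where between 39 and 69 miRNAs rose and between 12 and 24 fell at an unadjusted p under 0.05. Without the 75Ep library at 21°C, 81 rose and 18 fell rescaled.

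None of the 5 members of the miR-430 family was called on either main scale, where 39.0% and 13.6% of all miRNAs tested were. miR-430d, the most read miRNA at 75Ep, had 81629 and 66383 reads at 20S, against 86556 and 34391 at 75Ep. That is 10.6% and 11.6% of the miRNA reads at 20S, against 45.2% and 24.1% at 75Ep. miR-430a had 96358 and 74207 reads at 20S, against 72773 and 33349 at 75Ep, and 12.6% and 13.0% of the miRNA reads, against 38.0% and 23.3%. As percents of miRNA reads both were lower in each 20S library than in each 75Ep library, by 1.57 (standard error 0.60, limma adjusted p = 0.134) and 1.22 (standard error 0.46, limma adjusted p = 0.133) on the log2 scale. miR-430c was at 1.29% and 1.04% of the miRNA reads at 20S, against 2.14% and 1.22% at 75Ep, and miR-430e at 0.0111% and 0.0112%, against 0.00730% and 0.0189%. miR-430i had 0 and 2 reads at 20S, against 0 and 3 at 75Ep. For miR-430c, miR-430e and miR-430i the stages overlapped. That the stages lay apart for miR-430a and miR-430d is no test, since 2 libraries against 2 cannot go below an exact p of 0.333. The median change of the 5 was 0.54 as deposited and -0.90 rescaled, against 1.87 and 0.50 over all miRNAs tested. In the later libraries the family took 6.90% and 4.71% of the miRNA reads at hatching, and 0.00915% and 0.00791% at Met, so both 20S libraries stood between those of 75Ep and of hatching.

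The miR-17-92 and related clusters, which are tied to proliferating cells, held 15.6% and 16.1% of the miRNA reads at 20S, against 4.79% and 18.9% at 75Ep. The 75Ep libraries lay on both sides of the 20S libraries. As deposited, 11 of the 21 members rose and none fell, with a median change of 2.95. Rescaled, 2 rose, miR-20b and miR-363, and the median was 1.19. Over all miRNAs tested 38.0% rose as deposited and 10.5% rescaled. The list median was 0.43 centred and -0.23 with miR-430 left out of the total. On each of these 2 scalings 2 of the 21 fell and none rose. Of all miRNAs tested, 7.46% and 6.44% fell there and 9.83% and 3.39% rose. Those that fell were miR-20a-3p on both, miR-92b centred and miR-25-3p without miR-430. miR-17a-5p, its most read member, took 5.20% and 5.48% of the miRNA reads at 20S, against 1.57% and 11.0% at 75Ep. Its change was 2.12 as deposited (standard error 1.08, limma adjusted p = 0.155). miR-20b had 2624 and 2341 reads at 20S, against 63 and 161 at 75Ep, and rose by 2.61 rescaled (standard error 0.55, limma adjusted p = 0.0415). miR-363, read 38 and 22 times at 20S, had 2 and 0 reads at 75Ep. In percent of miRNA reads it was 4.74-fold (1.23 to 40.6, counting error only) higher at 15°C. At 21°C it was 1.83-fold higher against 3 reads at 75Ep.

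The miR-130 family, with miR-301 and miR-454 as members of the same seed, was among the leading groups at 20S. It held 21.5% and 16.8% of the miRNA reads at 20S, against 1.92% and 6.39% at 75Ep, and the groups did not overlap. The 11 members listed include opposite strands, such as miR-130b-5p, and miR-454 had no read in the 4 libraries. As deposited 7 of the 11 members rose, and rescaled 2 did, with median changes of 3.47 and 1.71. Of all miRNAs tested 38.0% and 10.5% rose, and with miR-430 left out of the total 1 of the 11 did. With unread members at their bound the medians were 2.96 and 1.21. miR-130c was the most read miRNA of both 20S libraries, with 132906 and 75558 reads, against 3156 and 7281 at 75Ep. Its percent of miRNA reads was 17.3% and 13.2% at 20S, against 1.65% and 5.09% at 75Ep. It rose by 4.14 as deposited (standard error 1.07, limma adjusted p = 0.0191), and its rescaled change of 2.38 (standard error 0.70, limma adjusted p = 0.0793) did not pass. miR-301c had 18292 and 12617 reads at 20S, against 262 and 865 at 75Ep, and rose by 2.99 rescaled (standard error 0.67, limma adjusted p = 0.0476). miR-130b-3p had 9698 and 5373 reads at 20S, against 141 and 403 at 75Ep, and rose by 2.92 rescaled (standard error 0.65, limma adjusted p = 0.0476). miR-130a was read 33 and 8 times at 20S and had no read at 75Ep. Against 3 reads at 75Ep, with the 20S reads taken as exact, it was 9.29-fold and 2.26-fold higher in percent of trimmed reads. In percent of miRNA reads this ratio was 2.75 and 0.67, and its rescaled change did not pass (limma adjusted p = 0.0910).

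The miRNAs encoded in the Hox clusters, miR-10 and miR-196, rose together on both main scales. Hox genes pattern the axis from head to tail, and in vertebrates these miRNAs target Hox transcripts. They held 5.42% and 5.26% of the miRNA reads at 20S, against 0.481% and 0.499% at 75Ep, with the temperatures close to each other at each stage. All 6 members tested of 8 listed rose as deposited, 5 rose rescaled, 5 centred and 3 with miR-430 left out of the total. The shares risen over all miRNAs tested were 38.0%, 10.5%, 9.83% and 3.39% on these scalings. The median change of the 6 members was 5.37 as deposited and 3.61 rescaled. miR-10d had 17839 and 11459 reads at 20S, against 206 and 153 at 75Ep. It was 73.1-fold (63.7 to 84.3) and 63.4-fold (54.0 to 74.8) higher at 20S in percent of trimmed reads, with 95% intervals that cover counting error only. In percent of miRNA reads the folds were 21.6 (18.9 to 24.9) and 18.7 (16 to 22.1). Its change was 6.08 as deposited (standard error 0.86, limma adjusted p = 0.0060) and 4.33 rescaled (standard error 0.39, limma adjusted p = 0.0130).

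The other Hox miRNAs were higher at 20S as well. miR-10b had 14941 and 11556 reads at 20S, against 605 and 336 at 75Ep, and rose by 2.86 rescaled (standard error 0.41, limma adjusted p = 0.0254). miR-10c had 5743 and 3973 reads at 20S, against 66 and 115 at 75Ep, and rose by 3.77 rescaled (standard error 0.51, limma adjusted p = 0.0224). miR-10a had 618 and 759 reads at 20S, against 13 and 21 at 75Ep, and rose by 3.32 rescaled (standard error 0.58, limma adjusted p = 0.0309). For each of these the lower 20S library was above the higher 75Ep library. miR-196a, whose genes lie in the posterior part of the Hox clusters, had 2070 and 1992 reads at 20S, against 31 and 67 at 75Ep, and rose by 3.46 rescaled (standard error 0.57, limma adjusted p = 0.0291). miR-196b had 390 and 368 reads at 20S, against 0 and 21 at 75Ep. It rose as deposited (limma adjusted p = 0.0101) but not rescaled (limma adjusted p = 0.0928), and both 20S libraries were above both 75Ep libraries.

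**Figure D3:**
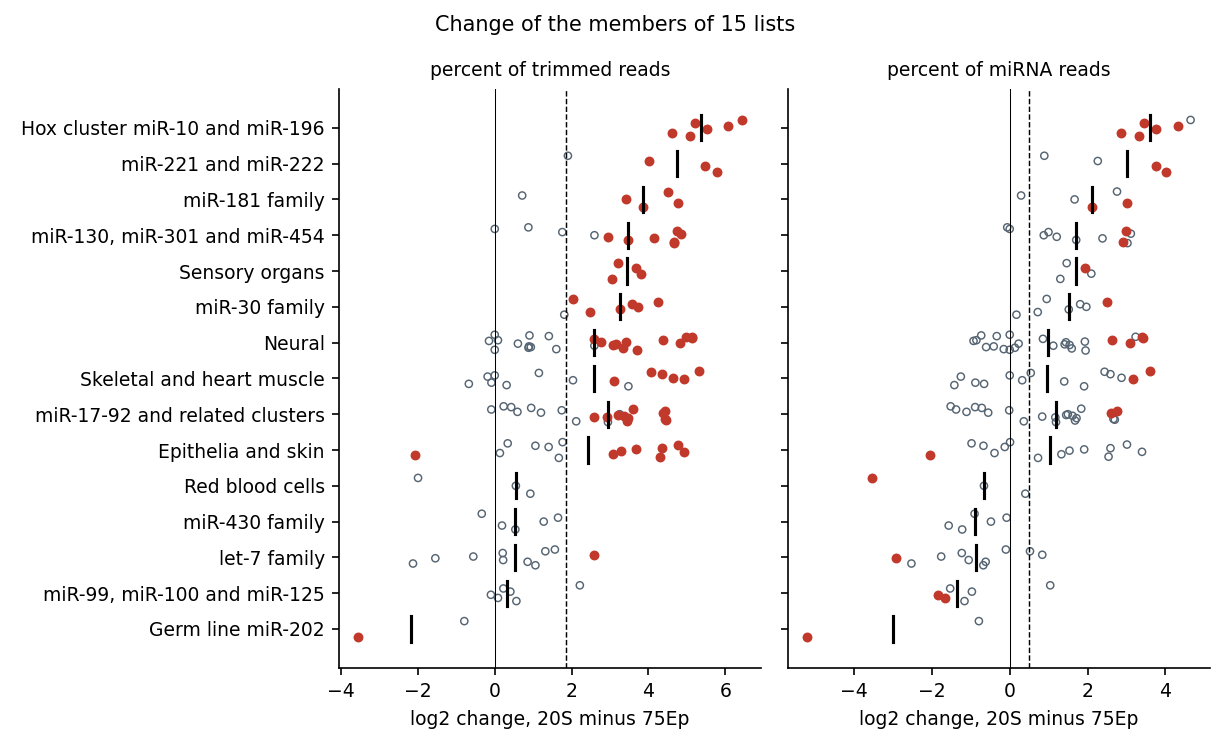
Each point is the log2 change 20S minus 75Ep (x axis) of a miRNA in 15 lists (y axis), as percent of trimmed reads on the left and of miRNA reads on the right. Filled points passed the test, thick bars are list medians and the dashed line is the median of all 295 miRNAs (1.87 and 0.50). The Hox list lies farthest to the right (medians 5.37 and 3.61) and miR-202 farthest to the left (medians -2.17 and -3.0).

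Of the muscle miRNAs miR-1, miR-133, miR-206 and miR-499, 6 of 14 rose as deposited and 2 rescaled, with median changes of 2.57 and 0.97. Over all miRNAs tested 38.0% and 10.5% rose, with medians of 1.87 and 0.50, so the counts of the list were near those of all miRNAs. With unread members at their bound, the rescaled median was 0.86. Centred 2 of the 14 rose and 2 fell, against 9.83% and 7.46% of all miRNAs tested. With miR-430 left out of the total none rose and 1 fell, against 3.39% and 6.44%. The list held 2.06% and 1.02% of the miRNA reads at 20S, against 0.178% and 0.438% at 75Ep. miR-133b-3p, of skeletal and heart muscle, had 567 and 451 reads at 20S, against 13 and 14 at 75Ep, and rose by 3.17 rescaled (standard error 0.39, limma adjusted p = 0.0170). miR-499-3p, from an intron of a myosin gene in mammals, had 65 and 27 reads at 20S, against 1 and 0 at 75Ep, and rose by 3.60 rescaled (standard error 0.55, limma adjusted p = 0.0266). miR-206-3p, the most read of the list, had 14568 and 4921 reads at 20S, against 251 and 491 at 75Ep. It rose as deposited by 4.35 (standard error 1.04, limma adjusted p = 0.0150) and had a rescaled change of 2.59 (standard error 0.75, limma adjusted p = 0.0771). miR-1a-3p, the partner of miR-133a in muscle, did not follow. It had 80 and 101 reads at 20S, against 52 and 72 at 75Ep, which is 0.0104% and 0.0177% of the miRNA reads at 20S, against 0.0271% and 0.0504% at 75Ep. Its percent of miRNA reads was below both 75Ep libraries in both 20S libraries. Centred, and with miR-430 left out of the total, it fell (limma adjusted p = 0.0398 and 0.0359).

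The miR-181 family, studied in mammals in differentiating myoblasts and blood cells, had 4 of 5 members rise as deposited and 2 rescaled (median changes 3.86 and 2.11). Of all miRNAs tested 38.0% and 10.5% rose. Centred 2 of the 5 rose, and with miR-430 left out of the total 0 did, with a median change of 0.66. miR-181b had 2606 and 3135 reads at 20S, against 67 and 115 at 75Ep, and rose by 3.01 rescaled (standard error 0.36, limma adjusted p = 0.0170). miR-181a-5p had 1869 and 2513 reads at 20S, against 78 and 201 at 75Ep, and rose by 2.11 rescaled (standard error 0.45, limma adjusted p = 0.0433). Its opposite strand miR-181a-3p had more reads, 8017 and 4615 at 20S, against 89 and 563 at 75Ep. The strand rose as deposited (limma adjusted p = 0.0150) and not rescaled (limma adjusted p = 0.133). Both members of the miR-26 family, tied to myogenesis, rose as deposited and neither rescaled. miR-26a had 5704 and 4685 reads at 20S, against 514 and 620 at 75Ep, a change of 2.95 as deposited and of -0.25 with miR-430 left out of the total (limma adjusted p = 0.0366 and 0.736).

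Several neural miRNAs had few or no reads at 75Ep. As deposited 12 of the 24 rose and rescaled 4 did, and none fell on either scale, where 38.0% and 10.5% of all miRNAs tested rose and 1.02% and 3.05% fell. The median change was 2.59 as deposited and 0.99 rescaled, and 1.51 and 0.07 with unread members at their bound. Centred 3 of the 24 rose. With miR-430 left out of the total none did, with a median change of 0.03. The shares risen over all miRNAs tested were 9.83% and 3.39% on these 2 scalings. miR-9a-3p, from a precursor of neural progenitors, had 207 and 215 reads at 20S, against 4 and 5 at 75Ep, and rose by 3.39 rescaled (standard error 0.56, limma adjusted p = 0.0291). miR-218a, known from motor neurons, had 4657 and 3231 reads at 20S, against 111 and 220 at 75Ep, and rose by 2.63 rescaled (standard error 0.52, limma adjusted p = 0.0355). miR-153a, a brain miRNA, had 67 and 91 reads at 20S, against 3 and 1 at 75Ep. It passed rescaled as well (limma adjusted p = 0.0355). miR-219, best known from oligodendrocytes, had 26 and 20 reads at 20S and none at 75Ep. Against 3 reads at 75Ep, with the 20S reads taken as exact, it was 7.32-fold and 5.64-fold higher in percent of trimmed reads. In percent of miRNA reads this ratio was 2.16 and 1.67. The neuronal miR-124-3p had 577 and 655 reads at 20S, against 21 and 73 at 75Ep, and rose as deposited only (limma adjusted p = 0.0211, rescaled 0.150). Its opposite strand miR-124-5p had more reads, 2128 and 814 at 20S, against 166 and 805 at 75Ep. That strand was not called, with changes of 1.60 as deposited and -0.15 rescaled. Other members not called also had negative rescaled changes, such as miR-129-3p (-0.33), miR-132-3p (-0.61) and miR-9b-3p (-0.73).

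All 4 sensory miRNAs of the cluster miR-96, miR-182 and miR-183 rose as deposited, and miR-183 rose rescaled. This cluster is read in hair cells and photoreceptors. miR-183 had 840 and 606 reads at 20S, against 49 and 44 at 75Ep, and rose by 1.93 rescaled (standard error 0.37, limma adjusted p = 0.0355). The list median was 3.44 as deposited and 1.70 rescaled, and of all miRNAs tested 38.0% and 10.5% rose. Centred, and with miR-430 left out of the total, none of the 4 sensory miRNAs was called. Of the 3 eye miRNAs, miR-204 of lens and pigment epithelium had 31815 and 18720 reads at 20S, against 963 and 3334 at 75Ep. It took 4.15% and 3.27% of the miRNA reads at 20S, against 0.502% and 2.33% at 75Ep, and rose as deposited (limma adjusted p = 0.0413) but not rescaled (limma adjusted p = 0.222). The others were miR-204b, with 6 and 2 reads at 20S and none at 75Ep, and miR-211, with no read in the 4 libraries, so the list median was 2.64 as deposited and 1.35 rescaled, and 0.08 and 0.00 with miR-204b at its bound.

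The miRNAs of epithelia and skin made up 13.1% and 18.4% of the miRNA reads at 20S, against 2.03% and 11.5% at 75Ep. Both 20S libraries were higher, and the 75Ep libraries were far apart. As deposited 7 of 14 rose and 1 fell, and rescaled none rose and 1 fell, with median changes of 2.43 and 1.03. Over all miRNAs tested, 38.0% rose as deposited and 10.5% rescaled, and 1.02% and 3.05% fell. miR-203a, which in mouse skin limits the renewal of basal cells, had 49509 and 54120 reads at 20S, against 2420 and 8214 at 75Ep. It rose by 3.29 as deposited (standard error 1.07, limma adjusted p = 0.0404), and its rescaled change was 1.54 (standard error 0.74, limma adjusted p = 0.210). miR-205-5p, of stratified epithelia, had 8589 and 11389 reads at 20S, against 123 and 1363 at 75Ep. miR-429-3p, of the miR-200 family that keeps the epithelial state, had 1921 and 1639 reads at 20S, against 30 and 98 at 75Ep, with a rescaled change of 3.01 (standard error 0.77, limma adjusted p = 0.0631). In each of these the 20S libraries were above the 75Ep libraries on both scales. Centred, and with miR-430 left out of the total, none rose and 2 fell, miR-429-5p on both, miR-200a-5p on the first and miR-203b-5p on the second. The member that fell on the main scales was miR-200a-5p, with under 1 read at 20S, whose deposited values at 75Ep stand for 2.58 and 1.26 reads, fewer than the 3 reads that a count of 0 allows.

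Among miRNAs of gut, pancreas and endocrine cells, a single member stood out. miR-375, a miRNA of pancreatic islets and other endocrine cells, had 2328 and 2722 reads at 20S, against 14 and 24 at 75Ep. It was at 0.303% and 0.476% of the miRNA reads at 20S, against 0.00730% and 0.0168% at 75Ep. Its folds in percent of miRNA reads were 41.5 (24.7 to 76.1) and 28.3 (19.0 to 44.3), and its change was 6.81 as deposited (standard error 0.75, limma adjusted p = 0.0041) and 5.05 rescaled (standard error 0.44, limma adjusted p = 0.0130). This was the largest rescaled rise among the miRNAs called. The other pancreas miRNAs did not follow, so the median of the 4 was 0.54 as deposited and -0.95 rescaled. miR-217 had 52 and 14 reads at 20S, against 46 and 37 at 75Ep, and fell centred (limma adjusted p = 0.0327), and miR-216b had 69 and 27, against 39 and 14. Of the 6 miRNAs of liver and gut 1 rose as deposited, miR-194a, with 10 and 13 reads at 20S, against 1 and 1 at 75Ep, and none rescaled (median changes 1.95 and 0.45). Among all miRNAs tested 38.0% and 10.5% rose. miR-192 took 0.0586% and 0.0769% of the miRNA reads at 20S, against 0.0167% and 0.0895% at 75Ep, where the groups overlapped. The liver miRNA miR-122-5p had 11 and 29 reads at 20S, against 8 and 2 at 75Ep, and was not called on either main scale. In percent of miRNA reads its fold was 0.343 at 15°C and 3.62 at 21°C. The opposite strand miR-122-3p had 5 and 4 reads at 20S, against 0 and 1 at 75Ep.

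Several further miRNAs rose on both main scales. miR-1788, a miRNA described in fish and birds, rose on both strands. The 3p strand had 966 and 774 reads at 20S, against 6 and 10 at 75Ep, and rose by 4.69 rescaled (standard error 0.48, limma adjusted p = 0.0154). The 5p strand had 269 and 371 reads at 20S, against 2 and 6 at 75Ep, and rose by 4.25 rescaled (standard error 0.73, limma adjusted p = 0.0303). miR-221 and miR-222 come from a shared cluster that acts in vessels and proliferating cells, and 3 of its 4 members rose as deposited and 2 rescaled (median changes 4.75 and 3.01). Of all miRNAs tested 38.0% and 10.5% rose, and with miR-430 left out of the total 1 of the 4 did. miR-221-3p had 1687 and 3039 reads at 20S, against 17 and 68 at 75Ep, and rose by 4.02 rescaled (standard error 0.77, limma adjusted p = 0.0355). miR-221-5p had 109 and 46 reads at 20S, against 3 and 0 at 75Ep, and rose by 3.75 rescaled (standard error 0.76, limma adjusted p = 0.0369). miR-222a-3p had 1023 and 800 reads at 20S, against 26 and 83 at 75Ep, and rose as deposited only (limma adjusted p = 0.0138, rescaled 0.106).

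miR-103 and miR-107, found in introns of pantothenate kinase genes in vertebrates, had 3 of 4 members rise as deposited and 1 rescaled (median changes 3.93 and 2.18). The one that rose on both was miR-107-5p, with 59 and 52 reads at 20S, against 0 and 1 at 75Ep. Reads may be shared between miR-103 and miR-107, whose 3p strands are near-identical in vertebrates. In the miR-30 family 6 of 7 members rose as deposited and miR-30e rose rescaled (median changes 3.27 and 1.52), with 1845 and 1685 reads at 20S, against 62 and 97 at 75Ep. Of all miRNAs tested 38.0% and 10.5% rose, and with miR-430 left out of the total 0 of the 7 did. miR-139 had 1285 and 1565 reads at 20S, against 30 and 66 at 75Ep, and rose by 2.97 rescaled (standard error 0.52, limma adjusted p = 0.0315). miR-135b had 1344 and 932 reads at 20S, against 50 and 36 at 75Ep, and miR-184-3p, of cornea and lens in vertebrates, had 3067 and 1465, against 76 and 106. Both rose rescaled (limma adjusted p = 0.0170 and 0.0355). miR-725, described in fish, had 12 and 15 reads at 20S and none at 75Ep, and miR-449b, of ciliated cells, had 11 and 23 at 20S and none at 75Ep. Both passed on the 2 main scales, but against 3 reads at 75Ep the bound in percent of trimmed reads was no more than 3.38-fold and 4.23-fold for miR-725, and 3.10-fold and 6.48-fold for miR-449b. In percent of miRNA reads that bound was below 1 at 15°C for both, at 0.999 for miR-725 and 0.916 for miR-449b, so the rescaled rise of these 2 is not shown by the reads at that temperature.

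In the families of connective tissue and of broad expression the members that rose did so as deposited, where 38.0% of all miRNAs tested rose, and none rose rescaled. Of the miR-23, miR-24 and miR-27 cluster 6 of 14 rose as deposited and none rescaled (median changes 2.17 and 0.73, and 1.52 and 0.13 with unread members at their bound). Of miR-199 and miR-214, of mesenchyme, 2 of 5 rose as deposited and none rescaled (2.25 and 0.50), and of the smooth muscle miRNAs 1 of 3 and none (2.29 and 0.53). For miR-140, of cartilage, 1 of 2 strands rose as deposited and none rescaled (2.56 and 0.81). miR-140-3p took 0.214% and 0.196% of the miRNA reads at 20S, against 0.0590% and 0.578% at 75Ep, where the 75Ep libraries enclosed those of 20S. Of miR-15 and miR-16, which restrain the cell cycle, 1 of 5 rose as deposited and none rescaled (1.99 and 0.36), and the members went apart. miR-15b had 719 and 694 reads at 20S, against 12 and 42 at 75Ep, while miR-15a had 80 and 137, against 93 and 214, and fell centred and with miR-430 left out of the total (limma adjusted p = 0.0243 and 0.0297). None of the 3 miR-29 and none of the 5 miR-101 miRNAs was called (1.97 and 0.23, 0.60 and -0.26). At an unadjusted p under 0.05, 140 of the 295 miRNAs passed as deposited and 106 rescaled, of which 136 and 79 were rises.

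miRNAs of circulating cells were rare at both stages. For the counts that follow, 38.0% of all miRNAs tested rose as deposited and 10.5% rescaled, and 1.02% and 3.05% fell. The red blood cell miRNAs miR-144 and miR-451 held 0.00208% and 0.00192% of the miRNA reads at 20S, against 0.0287% and 0.0161% at 75Ep. None of the 3 was called as deposited and 1 fell rescaled (median changes 0.55 and -0.66). That was miR-451, which matures in erythroid cells, with 10 and 9 reads at 20S, against 54 and 21 at 75Ep. It fell by 3.54 rescaled (standard error 0.56, limma adjusted p = 0.0266), and its deposited change was -2.00 (standard error 0.88, limma adjusted p = 0.105). Both 20S libraries were below both 75Ep libraries. Its partner in the red cell cluster, miR-144, had 4 and 2 reads of the 5p strand at 20S, against 1 and 2 at 75Ep, and 2 and 0 reads of the 3p strand at 20S and none at 75Ep. Of 8 white blood cell miRNAs 2 rose as deposited, miR-155 and miR-223-3p, and none rescaled (0.51 and 0.11). miR-155 had 7 and 4 reads at 20S and none at 75Ep, and miR-223-3p, of myeloid cells, had 164 and 74 reads at 20S, against 16 and 16 at 75Ep. miR-150, of lymphocytes in mammals, had 147 and 50 reads at 20S, against 123 and 116 at 75Ep, and fell centred and with miR-430 left out of the total (limma adjusted p = 0.0212 and 0.0359). Of the 3 endothelial miRNAs 1 rose as deposited and none rescaled (2.58 and 0.83). miR-126a-3p had 835 and 351 reads at 20S, against 123 and 47 at 75Ep, a change of 2.58 as deposited (limma adjusted p = 0.0211) and of -0.61 with miR-430 left out of the total (limma adjusted p = 0.550).

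The let-7 family held a nearly level share of the miRNA reads, and its companions a lower one at 20S. let-7 promotes differentiation, and miR-99, miR-100 and miR-125 are transcribed with it in many animals. The 10 let-7 members held 0.0595% and 0.0725% of the miRNA reads at 20S, against 0.0673% and 0.0818% at 75Ep, and the groups overlapped. In percent of trimmed reads the family was 2.99-fold and 3.0-fold higher at 20S, somewhat less than the 3.38-fold and 3.39-fold of all miRNAs. As deposited 1 rose, let-7g, and rescaled 1 fell, let-7e, with median changes of 0.54 and -0.87. Among all miRNAs tested 38.0% rose as deposited and 3.05% fell rescaled. let-7g had 281 and 251 reads at 20S, against 34 and 40 at 75Ep, with a change of 2.59 as deposited (limma adjusted p = 0.0380) and of -0.59 with miR-430 left out of the total (limma adjusted p = 0.392). let-7e had 4 and 6 reads at 20S, against 16 and 11 at 75Ep, and fell by 2.92 rescaled (standard error 0.58, limma adjusted p = 0.0355). The family's members have near-identical sequences, so reads may be shared between them.

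Of miR-99, miR-100 and miR-125, 6 of 8 were tested, none was called as deposited and 2 fell rescaled (median changes 0.32 and -1.35). Among all miRNAs tested 39.0% were called as deposited and 3.05% fell rescaled. The list held 0.194% and 0.200% of the miRNA reads at 20S, against 0.586% and 0.674% at 75Ep, and the groups did not overlap. miR-125b-5p had 585 and 501 reads at 20S, against 539 and 446 at 75Ep. Its change was -0.10 as deposited (standard error 0.79, limma adjusted p = 0.986), and it fell by 1.85 rescaled (standard error 0.35, limma adjusted p = 0.0355). miR-125a had 146 and 107 reads at 20S, against 121 and 82 at 75Ep, a change of 0.08 as deposited, and fell by 1.66 rescaled (standard error 0.38, limma adjusted p = 0.0485). miR-99a-5p had 671 and 466 reads at 20S, against 410 and 399 at 75Ep, and its rescaled change of -1.53 did not pass (standard error 0.37, limma adjusted p = 0.0556). These miRNAs thus held their place among the trimmed reads, and lost it among the miRNA reads.

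The largest fall among the miRNAs called was that of miR-202-5p, a miRNA of the ovary and germ line in vertebrates. It had 16 and 33 reads at 20S, against 318 and 172 at 75Ep. In percent of trimmed reads the 20S level was 0.0425 (0.0240 to 0.0701) and 0.162 (0.108 to 0.237) times that at 75Ep. It fell by 3.55 as deposited (standard error 1.13, limma adjusted p = 0.0391) and by 5.20 rescaled (standard error 0.81, limma adjusted p = 0.0266), and both 20S libraries were below both 75Ep libraries. The opposite strand, miR-202-3p, had 1 read in the 4 libraries. miR-1973, a name from mammals, was unread at 20S and had 2 and 5 reads at 75Ep, which is around the 3 reads that a count of 0 allows. Of the 37 miRNAs with numbers of 4 digits other than 5 known from teleosts, 26 were tested. As deposited 4 rose and 1 fell, and rescaled none rose and 2 fell (median changes 0.76 and 0.00). Among all miRNAs tested 38.0% rose and 1.02% fell as deposited, and 10.5% and 3.05% rescaled. The second rescaled fall of this list was miR-1260b, with 253 and 170 reads at 20S, against 422 and 191 at 75Ep. It fell by 2.44 rescaled (standard error 0.56, limma adjusted p = 0.0485). The remaining rescaled fall, miR-22b, rested on 2 and 2 reads at 20S, against 3 and 3 at 75Ep.

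**Figure D4:**
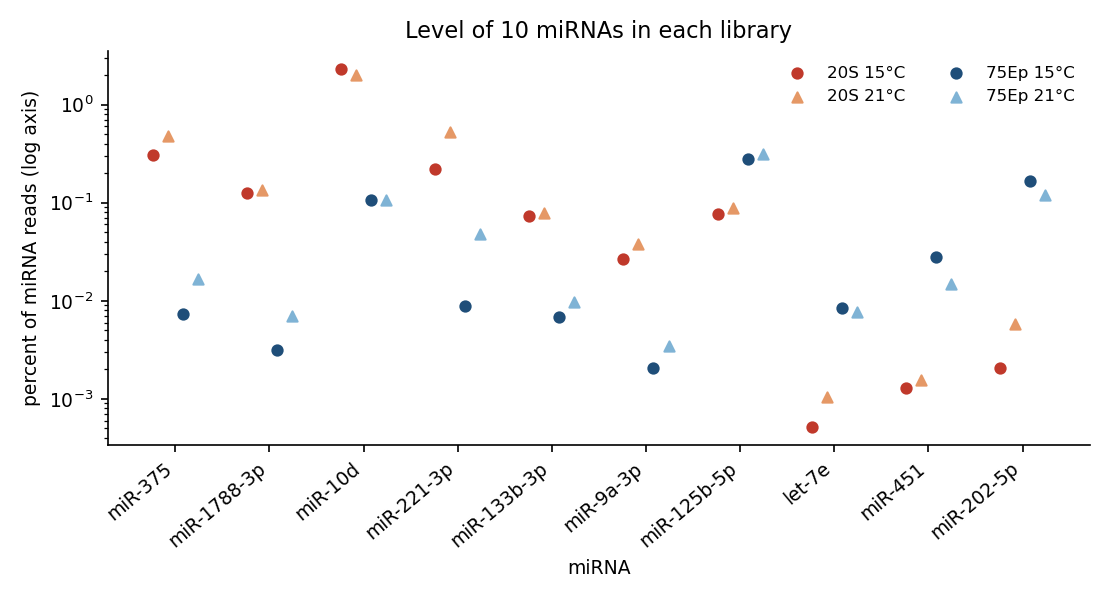
Points give the percent of miRNA reads (y axis, log scale) of 10 miRNAs (x axis) in the 2 libraries of 20S (red and orange) and the 2 of 75Ep (dark and light blue), with circles for 15°C and triangles for 21°C. For the 6 miRNAs on the left both 20S points lie above both 75Ep points, such as 0.303% and 0.476% against 0.00730% and 0.0168% for miR-375, and for the 4 on the right both lie below.

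On the 2 main scales the median change was smaller at 21°C than at 15°C. It was 1.53 at 21°C and 2.30 at 15°C as deposited, and 0 and 0.80 rescaled. With miR-430 left out of the miRNA total, the lists did not all go this way. The Hox list was then 2.20-fold higher at 20S at 15°C and 7.29-fold at 21°C, and the miR-130 group 2.18-fold and 1.82-fold. On the deposited scale 191 miRNAs were higher at 20S at both temperatures, 18 lower at both and 40 went opposite ways. Over the 295 miRNAs the changes at the 2 temperatures had a Pearson's r of 0.58 and a Spearman's rho of 0.66. Over the 114 with at least 10 reads in each of the 4 libraries both were 0.80. These describe miRNAs of the same 4 libraries, which share their totals, and not independent replicates. With 1 library per stage and temperature, the difference between temperatures was not tested.

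Within 1 of the stages, a few miRNAs were read at 1 temperature and nearly absent at the other, each in a single library. miR-147b had 5 and 1924 reads at 20S and none at 75Ep. miR-101b-5p had 259 and 134 reads at 20S, against 138 and 0 at 75Ep, and miR-101a-5p had 1 and 0 at 20S, against 0 and 24 at 75Ep. miR-466i had 32 and 71 reads at 20S, against 22 and 0 at 75Ep. The first is absent from 75Ep alone, the others from single libraries of either stage. miR-200c, of epithelia, had 117 and 3 reads at 20S and none at 75Ep. miR-29b had 515 and 372 reads at 20S, against 404 and 5 at 75Ep. Its change of 1.22 rescaled (limma adjusted p = 0.598) was -1.55 without the 75Ep library at 21°C (limma adjusted p = 0.0357).

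**Figure D5:**
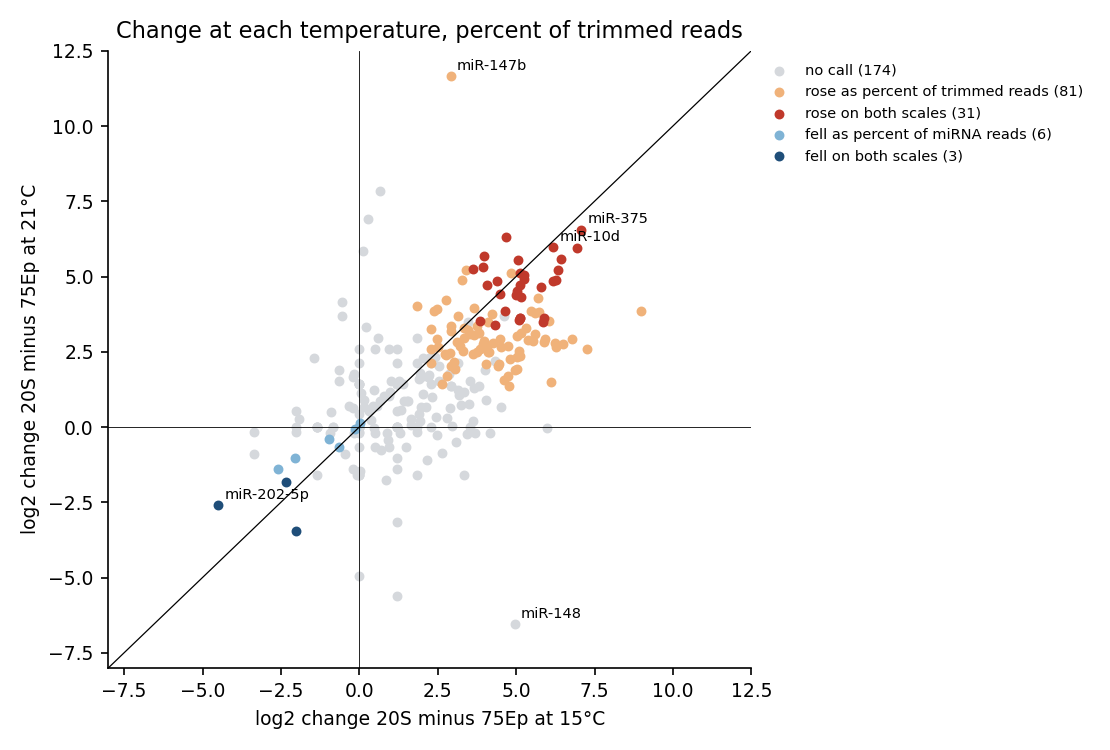
Each point is a miRNA, with its log2 change 20S minus 75Ep in percent of trimmed reads at 15°C (x axis) and at 21°C (y axis), coloured by the calls. Most lie in the upper right, 191 being higher at 20S at both temperatures, and below the diagonal, with medians of 2.30 at 15°C and 1.53 at 21°C, and miR-148 and miR-147b lie far from the diagonal.

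The ratio of the 2 strands of a precursor does not depend on how the libraries are scaled. Of 58 precursors with both strands listed, 43 had a mean of at least 10 reads of each strand over the 8 libraries, and none (0%) differed between 20S and 75Ep (limma on log2 of 5p over 3p). At an unadjusted p under 0.05, 7 did. In the 4 libraries of 20S and 75Ep, 26 of the 43 had that mean, of which 2 passed at an unadjusted p under 0.05, and the others had fewer reads of at least 1 strand, where a difference was less detectable. For miR-205 the 5p strand had 8589 and 11389 reads at 20S, against 123 and 1363 at 75Ep, and the 3p strand 74 and 134, against 16 and 99. The log2 ratio of 5p over 3p was higher by 3.29 at 20S (standard error 0.99, limma adjusted p = 0.171). For miR-203b the 5p strand had 2839 and 1228 reads at 20S, against 321 and 669 at 75Ep, and the 3p strand 33380 and 32644, against 872 and 5487, and the log2 ratio changed by -1.91 (standard error 0.63, limma adjusted p = 0.196). Neither passed, and the 20S libraries had the larger excess of the major strand in both.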

How the data were processed

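The 8 SOLiD libraries were trimmed by the authors with CLC Genomics Workbench 4.9 to reads of 10 to 35 nt, cleared of other small RNAs by BLAST and mapped against miRBase 18. The authors deposited 1 log2 value per miRNA and library, a percent of trimmed reads in log2 form, with unread miRNAs at -46.51. Reads were recovered here from these values. Of the 947 values in the 4 libraries, 943 were whole reads within 0.01 read, and miR-200a-5p and miR-27a held the others.

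Percents of trimmed reads (as deposited) and of miRNA reads (rescaled) were tested on the log2 scale with limma 3.58.1 in R 4.3.3 (stage and temperature as terms, variance trend, 3 residual degrees of freedom, Benjamini-Hochberg adjusted p under 0.05). The pseudocount, 0.5 reads of the shallowest library, was 2.31e-05% and 3.50e-04%. P-values measure the spread of single pooled libraries that the stage and temperature terms leave, over all stages. This spread includes any difference in the effect of temperature between stages, since no stage and temperature had a replicate library. Intervals are exact, at 95%, and cover counting error only. Values were summarised in Python 3.11.15 (numpy 2.4.6, pandas 2.3.3, scipy 1.17.1) and drawn with matplotlib 3.10.9, and the tests were run on simulated data.

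The members and the 30 lists were chosen with earlier results of these data known. The name rule for endothelium was corrected after values were seen, so that miR-1260 is not a member. Named miRNAs are the 5 most abundant of each library, the 10 largest rescaled rises and falls called, all deposited falls, the 4 most read of each list and members that fell, the 5 most read of those absent at a stage, the 5 with the largest difference between temperatures, those past the threshold for strand ratio and those in the study's text. miR-10a, miR-196b, miR-20b, miR-363, miR-153a, miR-9a-3p, miR-139, miR-135b, miR-184-3p, miR-725 and the miR-205 and miR-203b ratios, among others, are not covered by it and were picked with their values known. Alternatives were other scalings, a common floor, a pseudocount of 5 reads, other filters, only the 4 libraries, no temperature term, no trend, voom, family sums and leaving out each library. Sequences and positions of miRNAs were not used here.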

Additional observations from a re-analysis of the deposited data

Results flagged for a closer look

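miR-148 moved in opposite directions at the 2 temperatures. It had 1681 and 0 reads at 20S (15°C and 21°C), against 45 and 46 at 75Ep. Its log2 change in percent of trimmed reads was -6.54 at 21°C and 4.96 at 15°C, a difference of -11.50, whose size depends on the 0.5 reads added to the unread library. With 1 library per stage and temperature, the difference was not tested.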

How the results depend on the processing

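As deposited, 112 miRNAs rose and 3 fell. Centred on the median miRNA 29 rose and 22 fell, and with miR-430 left out of the miRNA total 10 rose and 19 fell. These also stand against 31 and 9 rescaled. With only the 4 libraries and 1 residual degree of freedom, 0 rose and 0 fell on both main scales, where 98 and 50 rose and 4 and 13 fell at an unadjusted p under 0.05. As deposited, 1 fell with a pseudocount of 5 reads and 1 with a filter at the median. Rescaled, 16 fell with no temperature term, the fit in which the libraries of a temperature are not paired. With a library left out, the counts were 0 to 125 risen and 0 to 2 fallen as deposited, and 0 to 81 risen and 0 to 18 fallen rescaled. Such a fit leaves a stage with a single library, assumed to vary like the others, and 2 residual degrees of freedom. The strand ratio gave 1 call with only the 4 libraries (miR-99a) and 0 to 1 with a library left out (miR-33 without the 75Ep library at 15°C).

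The ratio of the number of detected miRNAs, 20S over 75Ep, was 1.16 at full depth, 1.33 with at least 10 reads, 0.997 at equal miRNA reads (an alternative added after the data were seen) and 0.879 at equal reads without miR-430. The ratio of the miR-430 share was 0.374 of the miRNA reads and 1.26 of the trimmed reads. Changes counted as turned round were those of let-7g (-0.59), miR-26a (-0.25) and miR-126a-3p (-0.61) with miR-430 left out of the total, miR-125a (-2.39) centred, all against the deposited change, and miR-29b (-1.55) without the 75Ep library at 21°C, against the rescaled change. This list is not complete. For example, miR-1a-3p, miR-99a-5p and miR-20a-3p had positive deposited changes (0.31, 0.22 and 0.23) and fell centred and with miR-430 left out of the total. With miR-430 left out, miR-25-3p and miR-203b-5p also fell, against deposited changes of 1.20 and 1.77. Without the 75Ep library at 15°C, miR-29b rose by 3.99 rescaled. The cause was not tested. Of the values of single miRNAs compared under the alternatives, 1454 kept their call, 585 lost it, 27 gained it and 5 were counted as turned round. A fixed floor, no filter, no trend and voom kept each count within 1.5 times. Depth limits the miRNAs with few reads, since 3 reads were 1.38e-04% of the trimmed reads in the shallowest library.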

Other observations

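miR-184-5p, the strand opposite to miR-184-3p, had 2653 and 251 reads at 20S (15°C and 21°C), against 35 and 216 at 75Ep. The miRNA was chosen after its values were seen, and its difference between temperatures was not tested. At 20S the miR-130 group held 21.5% and 16.8% of the miRNA reads and the miRNAs of epithelia and skin 13.1% and 18.4%, so that the first was higher at 15°C and the second at 21°C. miR-34a, which p53 induces in mammals, had 2219 and 1159 reads at 20S, against 660 and 1540 at 75Ep. It was not called on the main scales, and fell centred and with miR-430 left out of the total (limma adjusted p = 0.0323 and 0.0296). miR-4304 had no read at 20S, and 0 and 15 reads at 75Ep.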
